A study of Rattus norvegicus with 12 samples.

Results

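The difference between the hepatic dexamethasone response of female and male rats was measured gene by gene, as the effect of dexamethasone in females minus its effect in males. It was computed from all 12 arrays of the series, so every array contributed. The groups were adrenalectomized male and adrenalectomized female rats of the Sprague-Dawley strain, 8 to 10 weeks old (with females taken in diestrus 1), given vehicle or dexamethasone at 1 mg/kg by intraperitoneal injection and sampled 6 h later. Adrenalectomy, which removes the source of corticosterone, was common to all 4 groups. Each group had 3 single-colour arrays, and each array carried liver RNA pooled from 3 animals, 9 animals per group. P-values therefore rest on the spread among pools and not among single animals. A positive value means a higher (or less negative) response in females, and a negative value a higher (or less negative) response in males. Values are log2 signals relative to the 75th percentile of the array.

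Dexamethasone is a synthetic agonist of the glucocorticoid receptor, a transcription factor that enters the nucleus on ligand binding and raises or lowers its target genes. In liver these targets include genes of gluconeogenesis, amino acid catabolism and anti-inflammatory control. Rat liver also differs strongly between the sexes in cytochromes, sulfotransferases and other enzymes, largely under the sex-specific pattern of growth hormone secretion. A gene can therefore differ in its response to the hormone, in its level before the hormone, or in both.

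The labelled sex was checked with 3 sex chromosome genes, and they did not all follow the labels. X-linked Eif2s3 stood at 1.66 or more on every female array and at 1.30 or less on every male array, and X-linked Ddx3x overlapped between the sexes. The probe named for Y-linked Uty went against the labels, at -0.38 or more on every female array and at -0.81 or less on every male array. The male-specific cytochrome Cyp2c11 and the female-specific Cyp2c12 differed in level in the labelled direction.

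Of 24298 genes tested, 7 differed in their dexamethasone response between the sexes at an adjusted p under 0.05 (limma with Benjamini-Hochberg adjustment), which is 0.0288% of the genes. The response was higher in females for 3 (0.0123%) and lower in females for 4 (0.0165%). Described here are 6 of the 7, of which Faxdc2, Capn8 and Fut4 carry a gene symbol. By comparison, dexamethasone changed 4895 genes in males (20.1%, with 9.34% higher and 10.8% lower) and 5919 genes in females (24.4%, with 11.7% higher and 12.6% lower) by the same rule. At an unadjusted p under 0.05 the difference held for 2433 genes (10.0%), 1174 higher (4.83%) and 1259 lower (5.18%) in females. That split moved with the scaling: 48.3% of these genes were higher in females in the reported fit, and 70.3% when each array was scaled to its median. The same change of scaling moved the median difference of all genes from -0.06 to 0.10. Small differences are therefore read relative to the median of all genes.

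Across the 24298 genes the effects in the sexes had a Pearson correlation of 0.690, and 0.770 over the 16804 genes well above background on all arrays. This describes genes, which are not independent replicates. The effects share no array, although some slides held arrays of both sexes. The difference was estimated with a median standard error of 0.395, against 0.280 for the effect in males and 0.280 in females. A gene with that median error would have needed a difference of 3.11 on the log2 scale to be called, and the smallest called difference was 2.08. The interquartile range of all differences ran from -0.44 to 0.30. A difference of at least 2-fold was seen for 3184 genes (13.1%), 1091 higher and 2093 lower in females, and all but 7 of these were not called.

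**Figure D1:**
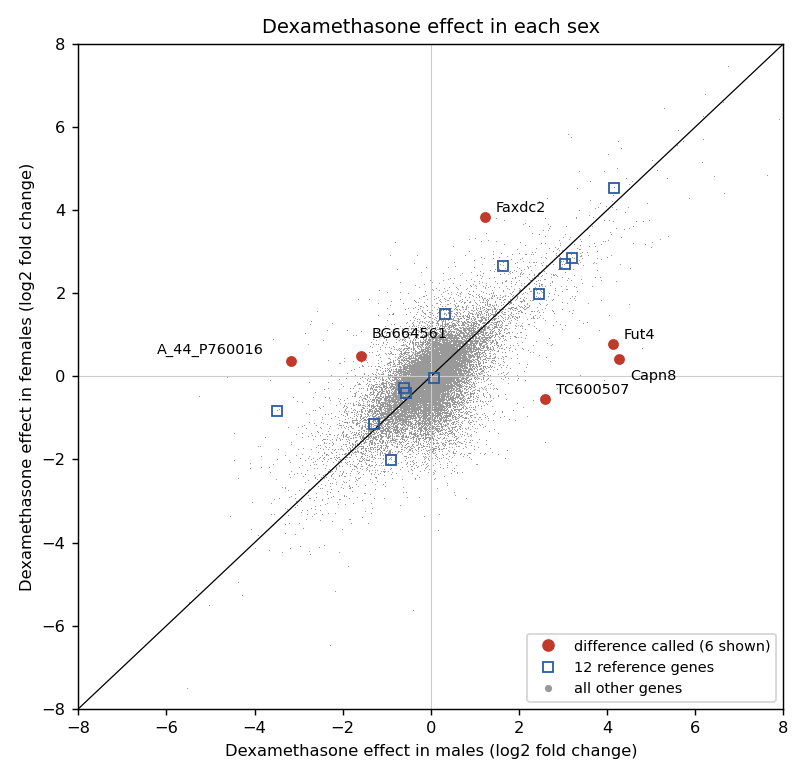
Dexamethasone effect in males (x axis) against that in females (y axis), both as log2 fold change, for 24298 genes, with the line of equal effects. Filled circles mark 6 of the genes whose difference was called and open squares the 12 reference genes, most of which lie near the line; Fut4 lies at 4.13 in males and 0.77 in females, and Faxdc2 at 1.22 and 3.83.

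The genes were sorted by the sex in which dexamethasone itself was called. Of the 3380 genes changed in the same direction in both sexes, 2 had a called difference and 358 (10.6%) an unadjusted p under 0.05. The 2532 genes called in females alone held 1 called difference, with 839 (33.1%) at an unadjusted p under 0.05. The 1508 genes called in males alone held 4 called differences, with 459 (30.4%) at the unadjusted level. Most genes called in a single sex were thus not shown to respond differently from the other sex. The sorting used arrays that also enter the difference, so these shares are a description.

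The 6 called transcripts are shown by the first 30 bases of their 60-base array probe, as the scanner files list it. For the 3 transcripts without a symbol the probe is the only identity beyond the name on the array.

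Faxdc2: catgaatattggtgactaaggccttaatgt

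A_44_P760016: aacctttctcagtattctcaacagagcaaa

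BG664561: cacacatgttgcttaagctggtaataacag

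Fut4: ggtctcagtgttgtcggaatctacagtgga

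Capn8: tgagctaactgggcagatcccagggttcag

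TC600507: gtacagtgtctgcctgagttttgggtagca

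Fut4 encodes a fucosyltransferase that builds Lewis x-type carbohydrate structures. Its signal stood at -1.04, -1.35 and -0.83 on the male vehicle arrays and at 3.14, 2.73 and 3.30 on the male dexamethasone arrays. In females it stood at -0.65, -0.82 and -0.95 after vehicle and at 0.42, -0.04 and -0.49 after dexamethasone. Fut4 thus rose in males without any overlap of arrays and rose much less in females, where the groups were also free of overlap. The effect was 4.13 ± 0.25 (SE, n = 3 arrays per group, 17.5-fold) in males and 0.77 ± 0.25 (1.71-fold, adjusted p = 0.048) in females. The difference was -3.36 ± 0.36 (adjusted p = 0.036). The sexes did not differ by the test after vehicle (0.26, adjusted p = 0.83), and after dexamethasone females were 8.54-fold lower (adjusted p = 0.00014).

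The promoter table of RefSeq (build GRCr8) held 3 of these 6, in windows of 250 bases before to 50 bases after the transcription start. Of Fut4, Faxdc2 and Capn8, only the Fut4 window (chromosome 8, minus strand, 19872090 to 19872389) held the hexamer AGAACA, a single arm of the glucocorticoid response element, or its reverse complement. The hexamer, searched on both strands, was present in 20.7% of 33469 promoter windows of the same length. Windows of Fkbp5, Tsc22d3, Per1 and Tat, which rose in both sexes, held no match, and those of Igf1 and Cyp2c11 held 1 each. Binding at the Fut4 match was not tested. The inverted repeat of the hexamer with 3 bases of any kind between its arms was present in 0.0149% of windows and was not in the Fut4, Faxdc2 or Capn8 window. The 30 bases around the Fut4 match, which starts at position 40 of the window, are shown with the match in capitals.

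Fut4 promoter: caccttttggaaTGTTCTtaggaccactta

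Capn8 encodes a calcium-dependent cysteine protease best known from the stomach. Its signal was not well above background on any of the 9 arrays outside the male dexamethasone group, where it stood at -2.17, -1.53 and -2.01. Male vehicle arrays read -6.19, -6.12 and -6.24. Female arrays read -6.20, -6.39 and -5.69 after vehicle and -5.44, -5.10 and -6.47 after dexamethasone. Detection was therefore confined to the 3 male dexamethasone arrays. In males the effect was at least 5.96-fold (adjusted p = 2.3e-05), and females after dexamethasone were at least 5.65-fold lower than males. The fitted difference of -3.85 ± 0.47 (adjusted p = 0.036) compares signals of which 3 groups lay at background, so its size has no bound. It was -2.14 with signals floored at 16 units and -0.91 with normexp background correction and quantile normalization. Capn8 passed the filter on dim probes through the male dexamethasone group alone, where it is high, so its call is not read as support for a difference.

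TC600507 is a transcript without a symbol. It stood at -1.36, -1.14 and -1.04 after vehicle and 1.09, 1.27 and 1.84 after dexamethasone in males. In females it stood at -0.58, -1.41 and -0.74 after vehicle and -1.74, -1.45 and -1.19 after dexamethasone. It rose 6.00-fold in males (2.59 ± 0.27), while the female effect of -0.55 ± 0.27 did not pass the test (adjusted p = 0.16). The difference was -3.14 ± 0.38 (adjusted p = 0.036).

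Faxdc2 encodes a protein with a fatty acid hydroxylase domain. Its signal stood at -0.74, -0.91 and -0.84 after vehicle and at 0.17, 0.33 and 0.68 after dexamethasone in males. In females it stood at -0.54, -0.60 and -0.05 after vehicle and at 3.39, 3.16 and 3.75 after dexamethasone. Faxdc2 rose in both sexes without overlap, and the female dexamethasone arrays stood above all others. The effect was 1.22 ± 0.22 (2.33-fold) in males and 3.83 ± 0.22 (14.2-fold) in females, a difference of 2.61 ± 0.30 (adjusted p = 0.036). A further Faxdc2 probe was well above background on only 2 arrays and gave a difference of -0.13, so the call rests on a single probe.

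BG664561, also without a symbol, was highest in male vehicle livers, at 0.35, 0.05 and -0.14. It fell in males to -1.50, -1.60 and -1.42. Female arrays read -2.04, -1.78 and -1.75 after vehicle and -1.32, -1.23 and -1.55 after dexamethasone. The effect was -1.59 ± 0.17 in males (3.01-fold lower) and 0.49 ± 0.17 in females (adjusted p = 0.060), a difference of 2.08 ± 0.24 (adjusted p = 0.036). The level differed before treatment, 3.85-fold lower in females (adjusted p = 0.00018), and differed little after dexamethasone (0.14, adjusted p = 0.75).

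A_44_P760016 names a probe without a symbol. It was well above background in male vehicle livers, at -2.62, -2.41 and -2.29, and on none of the male dexamethasone arrays, at -5.42, -5.57 and -5.87. Female vehicle arrays read -4.54, -5.67 and -4.21, none well above background, and female dexamethasone arrays -4.57, -4.34 and -4.37, of which 2 were. The transcript fell at least 3.33-fold in males, and the fitted female effect of 0.38 ± 0.32 (adjusted p = 0.42) has no bound, because its vehicle group was not detected. The fitted difference was 3.56 ± 0.45 (adjusted p = 0.037). It depended on how signals below background were treated, at 0.995 with signals floored at 16 units and 0.655 with normexp background correction and quantile normalization, and it was not called in either.

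**Figure D2:**
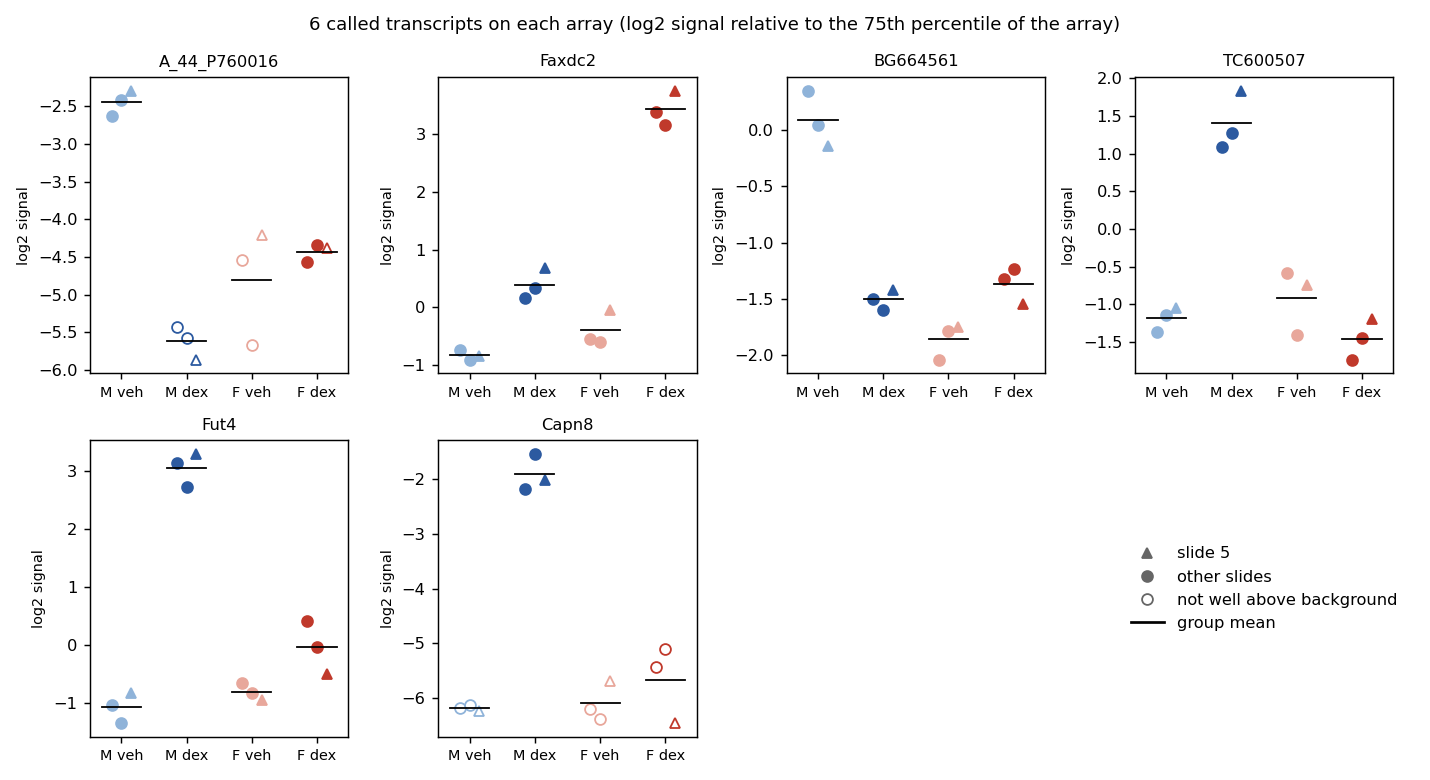
Log2 signal of 6 called transcripts on each of the 12 arrays, by group (M, males; F, females; veh, vehicle; dex, dexamethasone), with triangles for slide 5, open symbols for signals not well above background and bars for group means. Fut4, Capn8 and TC600507 are high on the 3 male dexamethasone arrays, and Faxdc2 on the 3 female dexamethasone arrays (3.16 to 3.75).

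The calls depended on single arrays and on the slide. With each array left out in turn, limma called 0 genes for 8 of the 12 arrays, with 1671 to 3088 genes at an unadjusted p under 0.05 in those 8 fits. It called 2 genes without female vehicle replicate 2, 4 without female vehicle replicate 3, 1 without female dexamethasone replicate 1 and 5 without female dexamethasone replicate 3. Across the 12 fits the highest adjusted p of each of the 6 differences described above lay between 0.102 (Fut4) and 0.144 (A_44_P760016, BG664561 and TC600507). Their sizes ran from 2.45 to 2.78 for Faxdc2, 3.13 to 3.86 for A_44_P760016 and 1.95 to 2.20 for BG664561. They ran from -3.59 to -3.13 for Fut4, -4.14 to -3.45 for Capn8 and -3.38 to -2.92 for TC600507. The 12 arrays lay on 5 slides. Slide 5, whose arrays had fewer spots well above background (53.0% to 61.8%, against 62.7% to 69.7% elsewhere), carried replicate 3 of all 4 groups and is the only slide on which the difference can be formed. Female dexamethasone replicates 1 and 2 shared slide 4 with no other group. With slide as a fixed block, the female dexamethasone part of the difference therefore rests on replicate 3 alone. That fit had 4 residual degrees of freedom, against 8 in the reported fit. With slide as a fixed block, 9 genes were called and none of them was among the 7. The 6 differences described above then had adjusted p-values from 0.126 (Faxdc2, Capn8 and Fut4) to 0.216 (A_44_P760016).

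Sizes of the 6 differences are given here for fits that treat slide. Some moved further with normexp background correction and quantile normalization, to -0.91 for Capn8 and 0.655 for A_44_P760016. With slide as a fixed block the differences were 2.55 for Faxdc2, 3.29 for A_44_P760016, 1.62 for BG664561, -3.98 for Fut4, -4.69 for Capn8 and -3.03 for TC600507. Within slide 5 alone, with 1 array per group and no test, they were 2.29, 3.41, 1.48, -3.67, -5.00 and -3.33 in the same order. The fixed block and slide 5 values rest on the same female dexamethasone array, so they are not separate checks. Without slide 5 they were 2.77, 3.63, 2.39, -3.21, -3.28 and -3.04. The adjusted p-values of that limma fit ran from 0.061 (Faxdc2) to 0.132 (A_44_P760016), and none of the 6 was called. In that fit the female dexamethasone group lay on slide 4 alone, which no other group shared, so group and slide cannot be told apart there. All 6 kept their direction under every alternative that gave them a value. They were chosen from these same arrays for differences far from 0 relative to their error, so a kept direction is no separate support. With slide as a random block (consensus correlation 0.512), 10 genes were called, 5 of them among the 7: Faxdc2, Fut4, BG664561, Capn8 and TC600507. The genes called with slide as a fixed block included Rab11fip5 (-3.04, adjusted p = 0.043) and Slc1a3, a glutamate transporter (-4.47, adjusted p = 0.043, against -1.78 without the block), which are named after their values were seen.

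**Figure D3:**
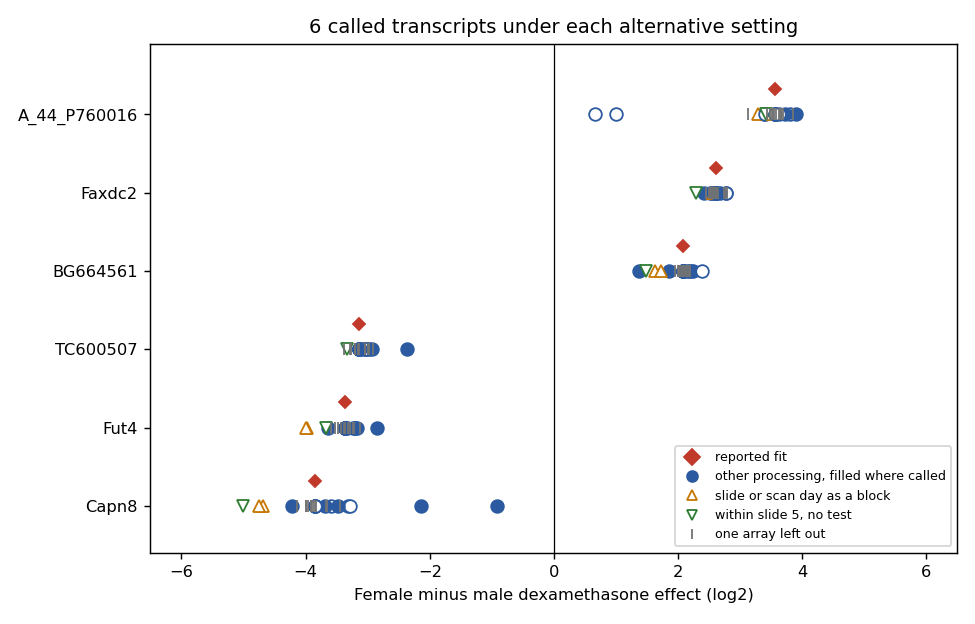
Female minus male dexamethasone effect (log2, x axis) of 6 called transcripts under each alternative setting, with the reported value as a diamond, single arrays left out as ticks and filled circles where the difference was called. Each transcript stays on its side of 0; the spread is widest for Capn8 and A_44_P760016, whose signals lay at background in several groups.

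A further 27 genes had an adjusted p between 0.05 and 0.1, 15 of them with a symbol. They are named for their adjusted p after it was seen, and none passed the test of the difference. Among genes of lipid and glucose metabolism, G6pc1, the catalytic subunit of glucose-6-phosphatase, stood at 6.98, 7.62 and 7.02 after vehicle and 6.70, 6.66 and 6.59 after dexamethasone in males. In females it stood at 7.33, 6.93 and 6.78 after vehicle and 4.66, 4.25 and 3.74 after dexamethasone. G6pc1 thus fell in females (-2.80 ± 0.26, 6.95-fold), where no array of the groups overlapped, while the male effect of -0.56 ± 0.26 did not pass the test (adjusted p = 0.17). The difference was -2.24 ± 0.37 (adjusted p = 0.088), and a further G6pc1 probe gave -1.37.

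Scap encodes the escort protein that carries sterol regulatory element-binding proteins to the Golgi. It fell in females (-1.04 ± 0.16, from 5.31, 5.18 and 5.29 to 4.11, 4.18 and 4.39) and gave 0.31 ± 0.16 in males (adjusted p = 0.21), a difference of -1.34 ± 0.22 (adjusted p = 0.088). Phyh, the peroxisomal phytanoyl-CoA hydroxylase, rose in females from 1.02, 1.38 and 0.81 to 2.50, 2.59 and 2.73, a level close to that of both male groups (2.66 to 2.98). Its effect was 1.54 ± 0.17 in females and -0.05 ± 0.17 in males (adjusted p = 0.89), a difference of 1.59 ± 0.25 (adjusted p = 0.088), and a further probe gave 1.60. Phyh was 3.34-fold lower in females after vehicle (adjusted p = 0.00042), and after dexamethasone the sexes differed by -0.15 (adjusted p = 0.73).

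Other genes near the threshold rose in males and less or not in females. Ttc21b, a component of ciliary transport, rose by 3.45 ± 0.26 in males and 1.26 ± 0.26 in females, a difference of -2.19 ± 0.37. Rin3, an activator of the endosomal GTPase Rab5, rose by 2.63 ± 0.22 in males and 0.79 ± 0.22 in females. Rab11fip5, an effector of the recycling GTPase Rab11, rose by 2.62 ± 0.25 in males against 0.44 ± 0.25 in females (adjusted p = 0.23). A further Rab11fip5 probe, well above background on 5 arrays, gave 1.65 in males and -1.65 in females, a difference of -3.30. Bcl2l11, which encodes the pro-apoptotic protein Bim, rose 4.25-fold in males and was not well above background on any female dexamethasone array. Its fitted difference of -2.84 ± 0.43 came to -1.83 with signals floored at 16 units and -0.67 with normexp background correction and quantile normalization. Cited1, a transcriptional coactivator, rose in males (2.31 ± 0.31) and gave -0.60 ± 0.31 in females (adjusted p = 0.19), and it was well above background on 6 of 12 arrays.

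Further genes near the threshold had a positive difference. Omd, Wdpcp and Rcan1 rose in females and less or not in males, and Rec114 and Stc1 fell in males. Omd (osteomodulin), a matrix proteoglycan, rose by 3.78 ± 0.26 in females, from -2.48, -3.17 and -2.75 to 0.97, 1.32 and 0.66, and by 1.49 ± 0.26 in males, from 1.49, 1.10 and 1.74 to 3.17, 2.60 and 3.01. It was 18.9-fold lower in females after vehicle and 3.85-fold lower after dexamethasone. Wdpcp, a ciliary and cell polarity protein, rose by 2.60 ± 0.18 in females and 0.97 ± 0.18 in males, with a further probe in the same direction (difference 1.00). Rcan1, an inhibitor of calcineurin, rose by 1.35 ± 0.19 in females against -0.26 ± 0.19 in males (adjusted p = 0.39). Rec114, a meiotic recombination protein, fell 6.66-fold in males (-2.73 ± 0.46) and gave 1.23 ± 0.46 in females (adjusted p = 0.078). Stc1, a secreted glycoprotein that acts on calcium and phosphate handling, was well above background on the 3 male vehicle arrays only, through which alone it passed the filter on dim probes, and fell at least 3.50-fold in males.

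Dexamethasone was called in opposite directions in the sexes for 7 genes, 4 of them with a symbol, and for 0 of the 7 was the difference itself called by limma, although all 7 had an unadjusted p under 0.05. Both facts rest on the same arrays, so the difference is not independent of this choice. Egfr, the epidermal growth factor receptor, was the only gene of the 4 well above background on all 12 arrays. It stood at 4.51, 4.98 and 4.60 after vehicle and 3.54, 3.61 and 3.91 after dexamethasone in males. In females it stood at 3.01, 3.02 and 3.15 after vehicle and 3.85, 3.49 and 4.50 after dexamethasone. Egfr thus fell 2.01-fold in males (adjusted p = 0.016) and rose 1.84-fold in females (adjusted p = 0.026), and the groups did not overlap in either sex. The difference was 1.89 ± 0.35 (adjusted p = 0.13), a further probe gave 2.50, and after vehicle females were lower by 1.63 on the log2 scale (adjusted p = 0.0068). The others were Relt, a member of the tumour necrosis factor receptor family, Nrcam, a neuronal cell adhesion molecule, and Dnal4-ps1, a pseudogene. These 3 were well above background on 3 to 4 arrays, and each had 2 groups without a detected array, both female groups in the case of Relt. The fitted difference of -4.20 for Relt came to -1.76 with signals floored at 16 units, that of 3.50 for Nrcam to -0.35 and that of 1.82 for Dnal4-ps1 to 0.034, so none of the fitted sizes is a measured one.

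A set of 12 reference genes was described whatever their values: receptors and direct glucocorticoid targets, and genes known for sex-biased expression. All 12 were measured and none had a called difference (smallest adjusted p 0.194, for Esr1). The 95% interval of the difference included 0 for 10 of the 12. Dexamethasone itself was called for 6 of them in males and 8 in females.

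Nr3c1, the glucocorticoid receptor, fell in both sexes, by 1.30 ± 0.17 in males and by 1.14 ± 0.17 in females, and the difference was 0.16 ± 0.24 (95% interval -0.37 to 0.69). Fkbp5, an immunophilin chaperone induced by glucocorticoids, rose by 4.17 ± 0.18 in males and 4.54 ± 0.20 in females, with a difference of 0.38 ± 0.27 (-0.23 to 0.98), and 1 missing female dexamethasone value. Tsc22d3, an anti-inflammatory leucine zipper protein, gave a difference of -0.36 ± 0.33 (-1.10 to 0.38) on rises of 3.20 and 2.84. The clock gene Per1 gave -0.33 ± 0.23 (-0.85 to 0.19) on rises of 3.04 and 2.71. Tat, the tyrosine aminotransferase, gave -0.48 ± 0.45 (-1.48 to 0.52) on rises of 2.46 and 1.98. Together these intervals ran from -1.48 to 0.98. An interval that includes 0 does not show that the sexes responded alike.

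Pck1, the rate-limiting enzyme of gluconeogenesis, read 5.88, 6.83 and 6.89 after vehicle and 5.27, 5.34 and 6.27 after dexamethasone in males. In females it read 6.13, 6.33 and 6.43 after vehicle and 4.03, 3.78 and 5.07 after dexamethasone. It fell in females (-2.00 ± 0.40) and did not pass the test in males (-0.90 ± 0.40, adjusted p = 0.15), with a difference of -1.10 ± 0.56 (-2.34 to 0.15). Igf1, a main growth hormone target, did not pass the test in either sex (0.07 and -0.04), and its difference of -0.10 ± 0.42 (-1.04 to 0.83) changed sign with the scaling.

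The sex-biased enzymes Cyp2c11 and Cyp2c12 kept large differences in level while their responses could not be told apart at this precision. Cyp2c11, the male-specific cytochrome, was 472-fold lower in females after vehicle and 377-fold lower after dexamethasone, and its difference in response was 0.33 ± 0.51 (-0.82 to 1.47, with 1 male vehicle value missing). Cyp2c12, the female-specific cytochrome, was 15.7-fold and 17.5-fold higher in females, with a difference in response of 0.16 ± 0.75 (-1.49 to 1.82). Sult2a1, a hydroxysteroid sulfotransferase, read 3.63, 1.91 and 2.50 in male vehicle livers and -0.12, -0.39 and -1.92 after dexamethasone. In females it read 7.06, 7.13 and 7.07 after vehicle and 5.53, 6.16 and 7.09 after dexamethasone. It fell 11.2-fold in males (-3.49 ± 0.56), while the female effect was -0.83 ± 0.56 (adjusted p = 0.31). The difference of 2.66 ± 0.79 (0.91 to 4.41) had an adjusted p of 0.340, and was 4.44 within slide 5 and 1.77 without it.

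Bcl6, a transcriptional repressor with male-biased expression in liver, read 4.28, 4.29 and 1.40 in male vehicle livers, so that the replicate on slide 5 stood apart. It rose in females (2.67 ± 0.62) and did not pass the test in males (1.63 ± 0.62, adjusted p = 0.092). Its difference was 1.03 ± 0.87 (-0.90 to 2.96), with -1.33 within slide 5 and 2.22 without it. Esr1, the oestrogen receptor alpha, was well above background on all 3 female dexamethasone arrays and on no female vehicle array. It rose in females (1.51 ± 0.18, at least 1.10-fold), gave 0.32 ± 0.18 in males (adjusted p = 0.25), and its fitted difference was 1.18 ± 0.25 (0.63 to 1.74, adjusted p = 0.194) with no bound on its size.

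**Figure D4:**
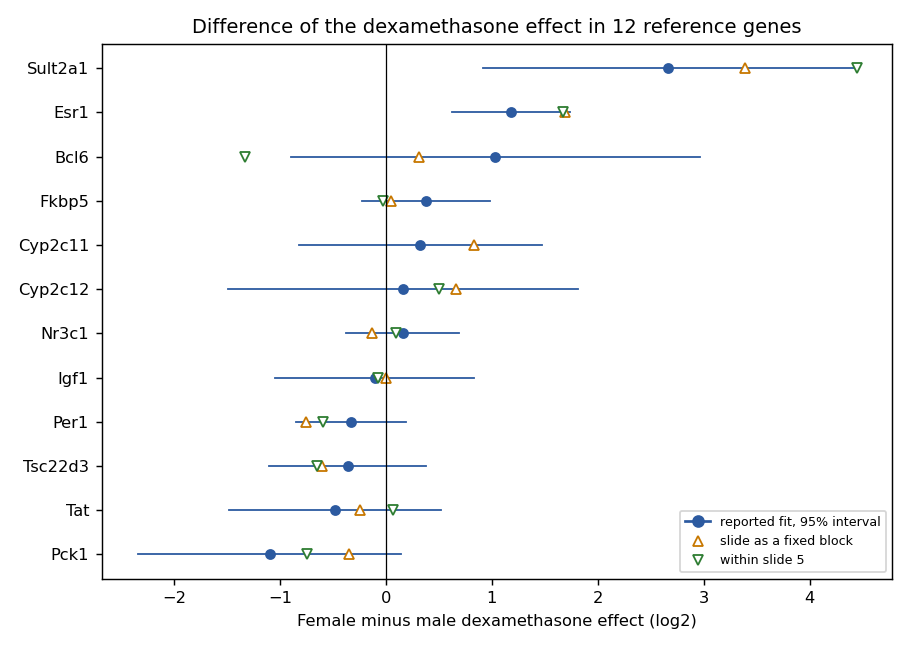
Female minus male dexamethasone effect (log2, x axis) of the 12 reference genes, with 95% intervals as bars, the value with slide as a fixed block as upward triangles and the value within slide 5 as downward triangles. The intervals of 10 genes include 0; Sult2a1 and Esr1 lie above it.

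In 24 pathway lists and 15 cell type lists, 710 genes were measured and 0 had a called difference by limma; 83 (11.7%) had an unadjusted p under 0.05, against 10.0% of all genes, 37 higher and 46 lower in females. The lists share members. Genes named from here on had an unadjusted p under 0.05 unless stated, and none passed the adjusted test of the difference. The medians below stand beside -0.06 for all genes, and they kept their sign under all 28 alternatives unless stated. Counts of differences above or below 0 stand beside the same median of all genes, which came to 0.10 with median scaling. Counts of members higher or lower in females at an unadjusted p under 0.05 stand beside 4.83% and 5.18% of all genes.

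Of 32 glucocorticoid-induced genes, 21 rose in males and 21 in females, against 9.34% and 11.7% of all genes. A fall was called for 3 in males and 5 in females, against 10.8% and 12.6%. The median effect was 1.70 in males and 1.81 in females. The median difference was -0.29, and 5 members had an unadjusted p under 0.05, all lower in females: G6pc1, Irs2, an insulin receptor substrate (-1.32 ± 0.40), Ppargc1a, a coactivator of gluconeogenic genes (-1.54 ± 0.49), Klf15, a transcription factor of amino acid catabolism (-0.95 ± 0.33), and Cebpb, a liver-enriched transcription factor (-0.83 ± 0.32). Klf15 rose in males (1.53) and not by the test in females (0.58, adjusted p = 0.096). Irs2 fell in both sexes, by 0.92 in males and by 2.24 in females. Of 33 genes of gluconeogenesis and amino acid catabolism, 2 were higher and 2 lower in females (median 0.11, which changed sign under 2 of 28 alternatives). Pfkfb1, which sets hepatic fructose 2,6-bisphosphate, rose in both sexes, by 2.63 in males and 4.27 in females, a difference of 1.64 ± 0.44.

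Among 26 lipogenesis genes the difference was positive for 23, with a median of 0.42 that ranged from 0.15 to 0.91 over the alternatives. Only 2 members reached an unadjusted p under 0.05 (7.69%, against 10.0% of all genes). These were Srebf1, the lipogenic transcription factor (1.28 ± 0.45), and Scd2, a stearoyl-CoA desaturase (1.65 ± 0.56). Srebf1 fell in males (-1.73, adjusted p = 0.0035), and its female effect was -0.45 (adjusted p = 0.33). Of the 26 genes, 1 rose and 6 fell in males (against 9.34% and 10.8% of all genes), and 4 rose and 2 fell in females (against 11.7% and 12.6%). These counts are no test of a difference between the sexes. Of 26 cholesterol synthesis genes, 2 were higher and 3 lower in females. Insig2, which retains Scap in the endoplasmic reticulum, fell in males (-1.97, adjusted p = 0.0023) and gave 0.34 in females (adjusted p = 0.49), a difference of 2.31 ± 0.48 (adjusted p = 0.179). Insig1, its paralogue, rose in males (0.86) against 0.08 in females, a difference of -0.78 ± 0.35 in the opposite direction.

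Phase II enzymes, which conjugate drugs and steroids, had a median difference of 0.53 over 35 measured genes, the highest of the lists drawn. At the unadjusted level 6 genes were higher and 0 lower in females (17.1%, against 10.0% of all genes). Larger shares stood in other lists, among them insulin signalling and glucose use (22.6% of 31 genes) and the circadian clock (21.1% of 19 genes). The phase II median ran from 0.28 to 0.75 over the alternatives. The sulfotransferases Sult1a1 (1.25 ± 0.26, adjusted p = 0.179), Sult2a1, Sult2a2 (1.83 ± 0.68) and Sult1e1, the glucuronosyltransferase Ugt2b15 (1.46 ± 0.65) and the glutathione transferase Gstm1 (1.05 ± 0.28) made up the 6. Sult1e1 was not well above background on any female array, so its fitted 1.11 ± 0.45 rests on the male arrays, and 5 of the 6 were measured in both sexes. They reached this in unlike ways. Sult1a1 rose in both sexes (1.44 in males, 2.68 in females), Sult2a1, Sult2a2 and Sult1e1 fell in males, and Gstm1 rose in females (1.04) with -0.01 in males.

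Of 29 genes of bile acid synthesis and transport, Cyp7a1, the rate-limiting enzyme of bile acid synthesis, fell in males (-2.04, adjusted p = 0.0034) with -0.20 in females (adjusted p = 0.74), a difference of 1.84 ± 0.53. Cyp7b1, an oxysterol hydroxylase with male-biased expression, rose in males (4.51, adjusted p = 0.00068) and gave 1.73 in females (adjusted p = 0.071), a difference of -2.78 ± 0.89. The list's median of 0.28 turned to -0.03 without slide 5.

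Genes known for sex-biased expression in liver were not a class with called differences. The 22 female-biased genes had a median difference of 0.40. At the unadjusted level 2 of them were higher and 2 lower in females (18.2%, against 10.0% of all genes). The 25 male-biased genes had a median of 0.33, with 1 higher and 2 lower (12%). The median of the female minus male levels was 3.24 after vehicle and 2.96 after dexamethasone for female-biased genes, and -3.96 and -3.80 for male-biased genes. Other summaries of the female-biased list went the other way: the difference in response was positive for 16 of the 22 genes, and the level of the list (the median over members, averaged over arrays) was 2.54 after vehicle and 0.94 after dexamethasone in males, against 5.06 and 4.77 in females. The male-biased median turned to -0.10 without slide 5. Trim24, a nuclear receptor cofactor of the female-biased list, fell in females (-2.81, adjusted p = 9.5e-05) and gave -0.63 in males (adjusted p = 0.15), a difference of -2.19 ± 0.40 (adjusted p = 0.123). In the list of the growth hormone, insulin-like growth factor and STAT5 axis, 1 of 26 genes was higher and 4 were lower in females (19.2%, against 10.0% of all genes). Foxa1, a pioneer transcription factor of hepatocytes, rose in females (1.47) with 0.30 in males, a difference of 1.18 ± 0.23 (adjusted p = 0.174). Socs2, a feedback inhibitor of growth hormone signalling, fell in both sexes, by 0.72 in males and by 1.81 in females (-1.10 ± 0.29). The median of that list was -0.15 and changed sign under 3 of 28 alternatives, among them slide as a fixed block (0.05).

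In the immune lists most called members fell in both sexes. Of 33 interferon response genes, 21 fell in males and 21 in females (against 10.8% and 12.6% of all genes), and 1 rose in each sex. The median difference was 0.06, with 3 higher and 1 lower in females. Igtp, an interferon-inducible GTPase, fell by 3.66 in males and by 2.33 in females, a difference of 1.32 ± 0.41. Of 28 inflammatory mediators, 16 fell in males and 16 in females, against the same shares of all genes, and 2 rose in each sex. Their median difference was -0.00, with 1 gene on each side. Neither list's median kept its sign under all alternatives.

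**Figure D5:**
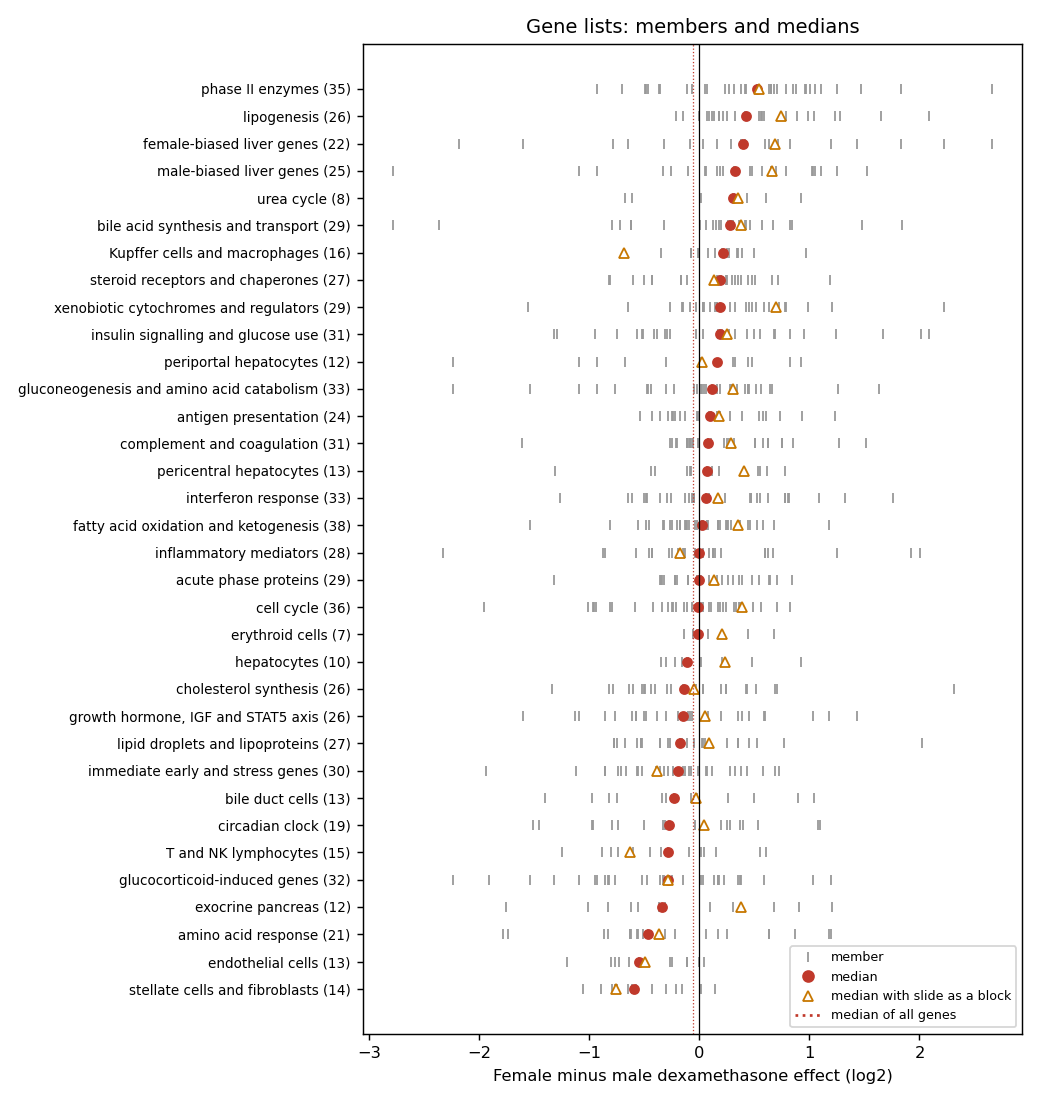
Female minus male dexamethasone effect (log2, x axis) of the members (ticks) of the 34 lists with at least 7 measured genes, given in brackets, with list medians as circles, medians with slide as a fixed block as triangles and the median of all genes as a dotted line. Phase II enzymes (0.53) and lipogenesis (0.42) have the highest medians, and stellate and endothelial markers (-0.60 and -0.55) the lowest.

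Markers of other liver cells were measured alongside, because whole tissue was used; in such samples fewer cells of a type and less RNA per cell cannot be told apart. Hepatocyte markers were the brightest list in all groups, and their level (the median over members) lay between 8.82 and 9.75 on every array. Their median difference was -0.11 and kept its sign under only 18 of 28 alternatives (0.23 with slide as a fixed block). Of 14 stellate cell and fibroblast markers 12 had a negative difference (median -0.60). An unadjusted p under 0.05 was reached by 4 (28.6%, against 10.0% of all genes). These were Lrat, which makes retinyl esters (-1.06 ± 0.28), Des, Dcn and Pdgfrb. The level of this list, as a median over members, ranged from 1.44 to 2.13 in male vehicle, 1.71 to 1.78 in male dexamethasone, 1.87 to 2.48 in female vehicle and 1.20 to 1.86 in female dexamethasone livers. Of 13 endothelial markers 12 had a negative difference (median -0.55). Only the receptor Kdr (-1.20 ± 0.52) had an unadjusted p under 0.05 (7.69%, against 10.0% of all genes). The level of the endothelial list ranged from 0.35 to 0.59, 0.13 to 0.21, 0.18 to 0.39 and -0.40 to 0.34 in the same order of groups. Of the 18 stellate and 16 endothelial markers listed, 4 and 3 were not measured, and the part of cell content in the differences above was not tested. Of 12 measured exocrine pancreas markers 1 was higher and 2 were lower in females, and their level was higher in female vehicle (-1.42 to -1.07) than in male vehicle livers (-2.88 to -1.76).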

How the data were processed

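Per the labels' protocols, single-colour Agilent rat arrays received Cy3-labelled RNA made from 500 ng. The authors deposited scanner files with spot intensity values from Agilent Feature Extraction (9.1 per the submitters' processing notes, 9.1.3.1 per the file headers). A value table of log10 signals, also deposited, has a scaling not given in the sources used here and served only as an alternative.

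The processed intensity was taken to log2 minus the 75th percentile of each array, and 211 flagged spots were left out (0 were saturated). A probe was kept if 3 or more of the 12 arrays read it well above background and every group had 2 or more usable values, and the brightest probe stood for its gene (24298 genes, 12116 with a symbol). Of 41012 probes 20371 were matched to the reference gene table. limma 3.58.1 (R 4.3.3, statmod 1.5.0, data.table in version 1.17.8; figures with Python 3.11.15, matplotlib 3.10.9 and numpy 2.4.6) fitted 4 group means (8 residual and 2.39 prior degrees of freedom) with Benjamini-Hochberg adjustment over all genes. Where no array of the dimmer group detected a gene, the fold of an effect is given as a bound set by the dimmest detected signal, and a fitted difference over such groups is named as one. The procedure was tested on simulated data. Precision is limited by 3 arrays per group.

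Genes named are the called ones (1 is not reported here), 12 reference genes and those called in opposite directions. Genes with an adjusted p between 0.05 and 0.1 and list members at an unadjusted p under 0.05 were added after their values were seen. The members and lists were chosen with earlier results of these data known. Alternatives covered scaling, background, filters, probes, variance, slide, scan day, replicate number and single arrays.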

Additional observations from a re-analysis of the deposited data

Results flagged for a closer look

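The difference of the dexamethasone effect between the sexes passed its own test (limma, adjusted p under 0.05) for the 6 transcripts described. The female minus male effect was 2.61 for Faxdc2, 3.56 for A_44_P760016 and 2.08 for BG664561. It was -3.85 for Capn8, -3.36 for Fut4 and -3.14 for TC600507. The Capn8 value has no bound, since only the male dexamethasone arrays detected the gene and it passed the filter through them alone. No other result was singled out. The check for an array far from the rest of its group was not run, because groups of 3 are too small for it. Estimated array weights ran from 0.307 for female vehicle replicate 3 to 2.86 for female vehicle replicate 2.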

How the results depend on the processing

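The 6 called differences described above kept their direction under every alternative that gave them a value, and their calls did not. Since the 6 were chosen from the same arrays, the kept direction is no separate support. The number of called differences was 44 with normexp background correction and quantile normalization (6 of them among the 7 called in the reported fit), 24 with signals floored at 16 units (6), 13 with a trended and robust variance (5), 171 with array weights (7), 4 over genes above background on all arrays (4), 4 with scan day as a block (0), 0 without the filter on dim probes and 0 without slide 5. In these last fits limma gave 2815 and 3665 genes at an unadjusted p under 0.05. List members called were 3 with normexp and quantile (Cux2, Scap and Trim24), 3 with the floor (Cyp7b1, G6pc1 and Trim24), 2 with the trended and robust variance (G6pc1 and Scap) and 7 with array weights (Ctrb1, G6pc1, Gdf15, Insig2, Scap, Sult1a1 and Trim24). The genes called with scan day as a block were Rab11fip5, Or2a5 and 2 without a symbol. Leaving out single arrays gave 0 to 5 called differences, 3679 to 5191 genes in males, 3744 to 6069 in females, 261 to 403 between the sexes after vehicle and 296 to 627 after dexamethasone. The other counts that moved by over 1.5 times were, in females, 3086 with slide as a fixed block and 12258 with array weights, and in males 7745 with slide as a random block. Between the sexes after vehicle they were 252 with slide as a fixed block, 654 with it random, 700 with scan day and 263 without slide 5. After dexamethasone they were 849 with the replicate block, 919 with slide random, 870 without slide 5 and 2831 with array weights. The cause of these moves was not tested.

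Replicate numbers were not taken to pair the samples in the reported fit. The correlation of the deviations of same-numbered arrays had a median of 0.074 for number 1, 0.083 for number 2 and 0.36 for number 3. Over 36 pairs of differently numbered arrays from different groups the median was -0.10. The lowest value of same-numbered arrays was -0.0004 for number 1, -0.003 for number 2 and 0.18 for number 3. Arrays of number 3 lay on a single slide, so number and slide cannot be told apart there. With the replicate block 8 differences were called, 3 of them among the 7 (Faxdc2, Fut4 and TC600507). Dexamethasone was then called for 6335 genes in males and 7731 in females, against 4895 and 5919 in the reported fit.

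Signs changed only for genes that were not called. Igf1 (-0.10) came to 0.19 with normexp and quantile, 0.25 with quantile, 0.052 with median scaling, 0.078 with the authors' deposited values, 0.10 with the mean of its probes, 0.0026 with slide as a fixed block and 0.033 with array weights, and from -0.39 to 0.17 with single arrays left out. Nr3c1 came to -0.13 with slide as a fixed block and -0.15 with scan day. With the floor, Esr1 came to -0.13 and Nrcam to -0.35. Cyp2c11 came to -0.22 without slide 5 and -0.065 with array weights, and from -0.026 to 0.63 with single arrays left out. Cyp2c12 came to -0.0076 without slide 5 and from -0.35 to 0.66 with single arrays left out. Signals near background limit Capn8 (-5.00 to -0.91) and A_44_P760016 (0.65 to 3.90) most.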
